A study of Drosophila melanogaster with 9 samples.

Results

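Somatic cells of the Drosophila testis were followed through 5 genes, zfh1, chinmo, eya, so and Nrt, in testes that make sperm and in testes whose germ cells stop as spermatocytes. The genes were chosen by name as markers of the hub and cyst lineage, and their probe sets are all those annotated to 1 of these 5 symbols and no other: 8 of 13966 probe sets, for 5 of 10844 genes. The arrays hold 3 probe sets for chinmo (CG31666, chromosome 2L), 2 for Nrt (CG9704, 3L) and 1 each for zfh1 (CG1322, 3R), eya (CG9554, 2L) and so (CG11121, 2R). A change was tested for 7 of the 8, since the remaining Nrt probe set lay below the level at which the arrays read a signal.

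Testes were dissected by hand from males reared at 25 °C and taken within a day of leaving the pupal case, and total RNA was read on 9 Affymetrix arrays, 3 per group. The control males were red[1] e[1]. The can males were w ; can[3] red[1] e[1], so they share the red and e markers with the control and add w and the can allele. The group labelled comr was comr[z1340] cn[1] bw[1] by title and genotype, which is another strain background without red and e, while its source name and description name aly instead. The mutant gene of that group is therefore called only by its label here, and for that group a difference from the control cannot be told apart from a difference of strain. How many males went into each array, and whether replicates were dissected separately, the labels do not say. The p-values therefore describe how much 3 arrays of a group vary, which may be technical, and the number of arrays limits the precision.

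The testis has a small hub of somatic cells at its tip, which signals to germline stem cells and to somatic cyst stem cells through the ligand Upd and the JAK-STAT pathway. Daughters of the cyst stem cells wrap each germ cell cluster in a pair of thin, non-dividing cyst cells. These stay with the germ cells from the first spermatogonium to the sperm bundle and receive signals from them through the EGF receptor. In testes mutant for meiotic arrest genes such as comr, aly and can, spermatocytes accumulate and no spermatids form, so the mix of germ cells differs from that of the control. Genes of the somatic lineage show how signals from cells outside the germline read on the same arrays.

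Signals are linear, per probe set, and each array had been scaled by the authors to a trimmed mean near 100, so a signal is a share of the RNA on its array and not an amount per testis. Signals of different probe sets are not comparable with each other. The brightest of 23 control probe sets with no target in the sample read 20.3, and this value is used as the floor. Arrays of a group correlated with each other at 0.972 to 0.987. The values that touch the results below are these: the 3′ to 5′ ratio of the GAPDH control probe sets averaged 2.59 in control, 5.99 in the group labelled comr and 5.52 in can, while that of actin averaged 2.62, 2.43 and 2.57 and that of eIF-4a 5.22, 6.76 and 3.83. Accessory gland genes, from an organ next to the testis, had a mean signal of 41.9 to 321.1 in control, 4.51 to 137.0 in the group labelled comr and 8.49 to 271.9 in can, so carry-over varied within every group. The part of either in the results was not tested. The comr probe set read 17.3 in control, 33.5 in the group labelled comr and 58.1 in can, the aly probe set 86.3, 546 and 176, and the can probe set 31.8, 163 and 38.0. No targeted gene was thus below its control mean in the group that carries its label or name. Between the mutants, comr and can each read lower in the group of their own label, and aly read higher in the group labelled comr. Where these probe sets lie relative to each allele was not analysed here, so they do not check the labels.

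None of the 5 genes changed by the rule applied to the whole array. That rule joins a Benjamini-Hochberg adjusted p under 0.05 in limma, over 9778 tested probe sets, to a minimum of 2-fold on the scale of log2(signal + 16), which compresses the changes of dim probe sets. Of the 7 tested probe sets, 0 were called in the group labelled comr relative to control, where 45.6% of all tested probe sets were called. In can against control 0 of 7 were called, against 33.8% of all, and between the mutants 0 of 7, against 14.8%. At an unadjusted p under 0.05 in limma, 3, 3 and 2 of the 7 passed in these 3 comparisons. Of all tested probe sets at least 79.4%, 71.1% and 49.2% did, these being the shares with an adjusted p under 0.05. In a bulk sample fewer cells of a type and less RNA per cell cannot be told apart.

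Fewer probe sets of like brightness were called than of all tested. Among the 3527 tested probe sets whose mean over all arrays lay between the lowest and highest mean of the 7, 22.6 and 74.5, the called shares were 35.3%, 20.4% and 10.8%. This window was chosen with the values known. The 95% interval of the change lay within a 2-fold rise and a 2-fold fall for all 7 probe sets in the group labelled comr and for 6 of 7 in can, the exception being so, whose interval reached down to -1.0. Of all tested probe sets 39.25% and 50.29% had such an interval. Between the mutants it was all 7, against 74.27% of all. With an offset of 1 in place of 16, where dim signals are compressed less, the interval stayed within 2-fold for 5 of 7 in each of the 3 comparisons. With spiked controls it did so for 5 of 7 in each mutant against control, with ribosomal protein centring for 2 of 7 in each, and with that on the log scale for 0 of 7. The shares of all tested probe sets under the offset of 1 and these scalings are not given here.

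**Figure D1:**
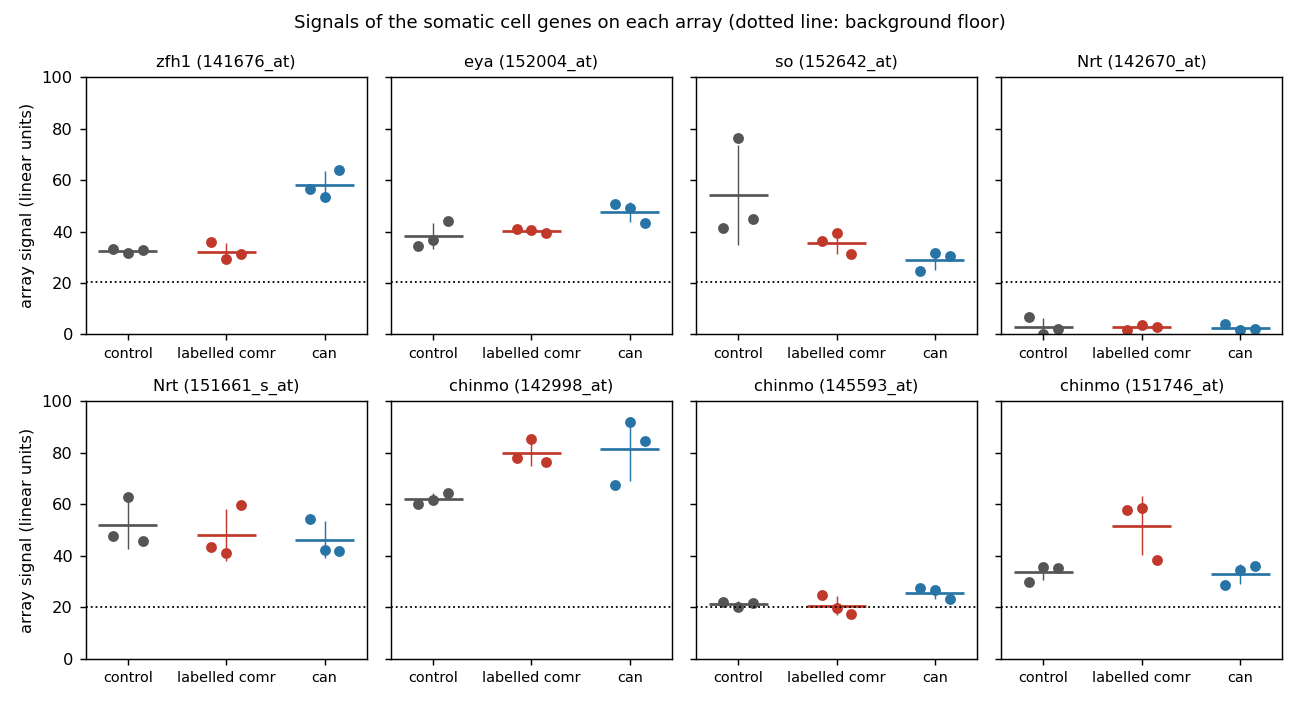
Signal of each of the 8 probe sets (linear, arbitrary units) on every array, with 3 points per group, the group mean as a horizontal bar, 1 SD either way as a thin vertical line (cut at 0) and the floor of 20.3 as a dotted line. For zfh1 the can arrays lie between 53.4 and 64 and all others between 29.4 and 36.0; for so the control arrays lie highest, with 1 at 76.4; the Nrt probe set 142670_at lies below the floor on every array.

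zfh1 encodes a zinc finger and homeodomain transcription factor that cyst stem cells need to renew themselves and that marks them and their youngest daughters. Its signal was 33.1, 31.5 and 32.9 on the control arrays, 36.0, 29.4 and 31.3 on the arrays labelled comr, and 56.6, 53.4 and 64 on the can arrays. All 3 can arrays lay above all 6 others, and the control arrays lay within the range of those labelled comr. The mean signal in can, 58.0 ± 5.44 (SD, n = 3), was 1.78 times that of the control, 32.5 ± 0.872 (SD, n = 3).

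On the log2 scale zfh1 was 0.61 higher in can than in control (SE 0.118, 95% interval 0.35 to 0.86, limma adjusted p = 0.000529) and thus passed the adjusted p but not the 2-fold minimum. The adjusted p stayed between 0.000931 and 0.00280 when any of the 9 arrays was left out. In the group labelled comr the change was -0.01 (95% interval -0.27 to 0.25, limma adjusted p = 0.941). The difference between the mutants, tested directly, was 0.62 lower in the group labelled comr (95% interval -0.87 to -0.36, limma adjusted p = 0.000899). The height in can depends on the scaling: centred on ribosomal protein genes it became -0.37.

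chinmo encodes a BTB and zinc finger transcription factor that acts downstream of JAK-STAT signalling in cyst stem cells and keeps the male identity of somatic cells of the testis. Its brightest probe set, 142998_at, read 60.2, 61.7 and 64.5 on the control arrays, 77.9, 85.4 and 76.3 on those labelled comr, and 67.7, 92.2 and 84.6 on the can arrays. Every mutant array lay above every control array, and the mutant groups overlapped each other. The mean signal was 1.28 times the control in the group labelled comr and 1.31 times in can.

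On the log2 scale this probe set was 0.29 above control in the group labelled comr (SE 0.115, 95% interval 0.04 to 0.55, limma adjusted p = 0.0330). In can it was 0.31 above control (SE 0.115, 95% interval 0.06 to 0.56, limma adjusted p = 0.0286). These passes were narrow, since with single arrays left out the adjusted p stayed under 0.05 in 5 of 9 fits for each mutant, with highest values of 0.110 and 0.119. In the group labelled comr the pass was lost without control replicate 1 or 2 or labelled comr replicate 1 or 2, and in can without control replicate 1 or 2 or can replicate 2 or 3.

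The other chinmo probe sets showed different patterns. Probe set 151746_at read 30, 35.8 and 35.4 in control, 57.9, 58.7 and 38.5 in the group labelled comr, and 28.7, 34.7 and 36.0 in can. All arrays labelled comr lay above those of both other groups, with 1 of them close to the rest, and control and can overlapped. The change was 0.43 in the group labelled comr (SE 0.147, 95% interval 0.11 to 0.75, limma adjusted p = 0.0173) and -0.02 in can (95% interval -0.34 to 0.30, limma adjusted p = 0.918). Directly between the mutants it was 0.45 higher in the group labelled comr (95% interval 0.13 to 0.77, limma adjusted p = 0.0237), which was lost without labelled comr replicate 1 or 2 or can replicate 1 (adjusted p up to 0.101). The pass against control was lost, with adjusted p up to 0.0776, when control replicate 1 or labelled comr replicate 1 or 2 was left out.

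Probe set 145593_at of chinmo lay near the floor, at 22.2, 20.3 and 21.8 in control, 24.8, 19.6 and 17.5 in the group labelled comr, and 27.4, 26.7 and 23.1 in can. The can arrays lay above the control arrays, and the arrays labelled comr overlapped both. Neither change passed: -0.04 in the group labelled comr (limma adjusted p = 0.812) and 0.16 in can (limma adjusted p = 0.313). The 3 probe sets thus did not give 1 direction for chinmo. Which transcripts each of them reads was not analysed here.

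eya encodes a transcription cofactor with phosphatase activity that is switched on as cyst cells leave the stem cell state and that later cyst cells need. Its signal was 34.2, 36.7 and 44.0 on the control arrays, 40.9, 40.5 and 39.5 on those labelled comr, and 50.8, 49.0 and 43.4 on the can arrays. The arrays labelled comr fell inside the control range, and the can arrays overlapped the control by 1 array. eya was 0.06 above control in the group labelled comr (95% interval -0.20 to 0.31, limma adjusted p = 0.672) and 0.23 above it in can (95% interval -0.03 to 0.49, limma adjusted p = 0.0963). Both intervals lie within 2-fold on the deposited scale and do not show that the level of eya was equal.

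so encodes a Six-family homeodomain protein that binds Eya in the eye and works with it in cyst cells. Its signal was 41.3, 76.4 and 44.7 on the control arrays, 36.2, 39.3 and 31.1 on those labelled comr, and 24.5, 31.6 and 30.3 on the can arrays. All 6 mutant arrays lay below all 3 control arrays, and the mutants overlapped each other. The control mean, 54.1 ± 19.4 (SD, n = 3), was 1.52 times that of the group labelled comr, 35.5 ± 4.14 (SD, n = 3), and 1.88 times that of can, 28.8 ± 3.78 (SD, n = 3). Control replicate 2 stood apart, and the other control arrays averaged 43.0.

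On the log2 scale so was 0.62 lower in can than in control (change -0.62, SE 0.176, 95% interval -1.0 to -0.23, limma adjusted p = 0.00756), past the adjusted p and short of 2-fold. Without control replicate 2 the change in can was -0.40 (limma adjusted p = 0.0268), and over all 9 fits that left out an array the adjusted p ranged from 0.00360 to 0.0308. In the group labelled comr the change was -0.41 (SE 0.176, 95% interval -0.80 to -0.03, limma adjusted p = 0.0472). That pass held in 2 of 9 such fits, those without control replicate 1 or 3, and without control replicate 2 the change was -0.20 (limma adjusted p = 0.223, the highest of the 9). Directly between the mutants so differed by 0.20 (95% interval -0.18 to 0.59, limma adjusted p = 0.370), so a difference between them was not detected.

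eya and so, whose proteins act as partners, therefore had opposite signs in can relative to control as deposited, with 1 of them past the adjusted p. Across the 9 arrays the log2 signals of so correlated at -0.62 with eya and at -0.60 with zfh1, and those of eya and zfh1 correlated at 0.71. These are descriptions over arrays that fall into 3 genotype groups and share their scaling.

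Nrt encodes Neurotactin, a transmembrane adhesion protein best known from neurons. Its probe set 151661_s_at read 47.8, 62.8 and 45.8 on the control arrays, 43.5, 41.2 and 59.9 on those labelled comr, and 54.5, 42.4 and 41.9 on the can arrays. The 3 groups overlapped throughout, with 1 high array in each. The change was -0.09 in the group labelled comr (95% interval -0.42 to 0.24, limma adjusted p = 0.600) and -0.13 in can (95% interval -0.46 to 0.20, limma adjusted p = 0.472). The probe set 142670_at of Nrt read 0.2 to 6.9 over the 9 arrays, under the floor on each, so it gives no level and was not tested.

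**Figure D2:**
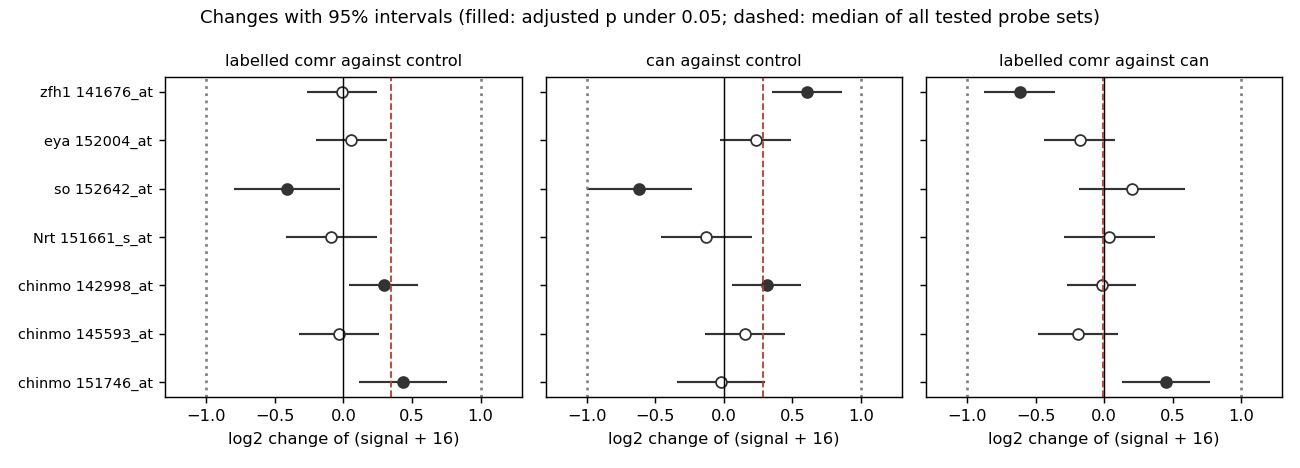
Change of each tested probe set on the log2(signal + 16) scale with its 95% interval from limma, for each mutant relative to control and for the mutants relative to each other, with a solid line at no change, dotted lines at 2-fold and a dashed line at the median of all tested probe sets. Filled points passed an adjusted p under 0.05, only the interval of so in can against control touches a 2-fold line, and all 7 estimates in each comparison lie between -0.62 and 0.61.

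Counting only the adjusted p, 2 of 7 probe sets were higher (chinmo 142998_at and 151746_at) and 1 lower (so) in the group labelled comr, where 50.5% and 28.9% of all tested probe sets were. In can 2 were higher (zfh1 and chinmo) and 1 lower (so), against 47.2% and 23.9% of all. Between the mutants 1 was higher (chinmo) and 1 lower (zfh1) in the group labelled comr, against 25.1% and 24.1%. The groups did not overlap, above or below control, for 2 and 1 probe sets in the group labelled comr, against 50.9% and 29.9% of all tested probe sets. In can they did not overlap for 3 and 1, against 48.0% and 24.7%. Between the mutants 1 lay above and 2 below, against 30.3% and 28.8%.

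The typical tested probe set was itself shifted upwards. The median change over all tested probe sets was 0.35 in the group labelled comr and 0.29 in can, while the median over the 7 was -0.01 and 0.16. Relative to the median of all, 6 of the 7 lay below it in the group labelled comr and 5 of 7 in can. Between the mutants the medians were -0.02 for the 7 and -0.01 for all.

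How these genes are read depends on what is held constant. Besides the deposited scale, arrays were quantile normalised, centred on their median, centred on 9 spiked control probe sets, and centred on 24 ribosomal protein probe sets, the last also on the log scale. The median change of the 7 in the group labelled comr was 0.37 with spiked controls, 0.01 with quantiles, -0.16 with array medians, -0.77 with ribosomal protein genes and -1.11 with these on the log scale. In can it was 0.37, 0.01, -0.04, -0.79 and -1.16. The median of all tested probe sets moved along, and the gap between the 7 and all stayed between -0.41 and -0.26 in the group labelled comr and between -0.18 and -0.09 in can over the 6 scalings.

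No member was called with quantiles, array medians or spiked controls in any of the 3 comparisons. With ribosomal protein centring so was called lower in the group labelled comr, at -1.27, where 34.9% of all tested probe sets were called lower. In can so and Nrt were called lower, at -1.58 and -1.15, against 37.1% of all. Centred on the log scale, an alternative added after the data were seen, 5 of 7 were called lower in the group labelled comr and 6 of 7 in can, against 42.3% and 51.2% of all. The sign of so against control was negative in all 6 scalings in both mutants, but with spiked controls the change was -0.0073 in the group labelled comr (limma adjusted p = 0.977) and -0.34 in can (limma adjusted p = 0.148), while those of zfh1 in can, eya and chinmo (142998_at) turned negative with ribosomal protein genes.

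**Figure D3:**
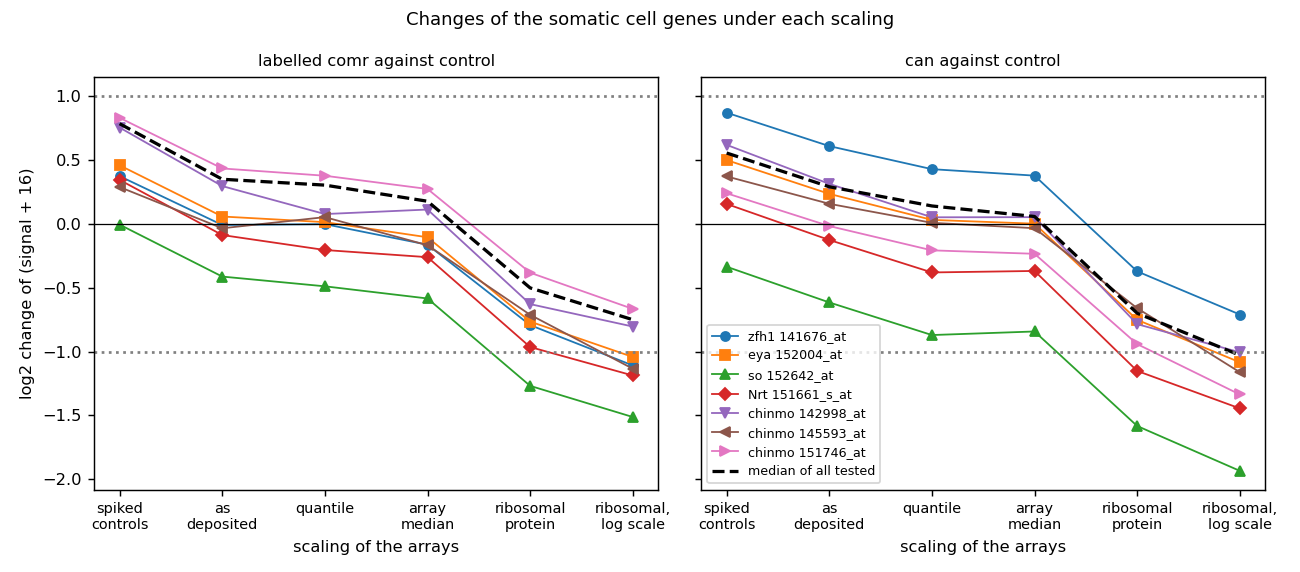
Change against control of each tested probe set under the 6 scalings of the arrays, log2(signal + 16) scale, 1 panel for the group labelled comr and 1 for can, with the median of all tested probe sets as a dashed line and dotted lines at 2-fold. All 7 shift together with the scaling: their median runs from 0.37 with spiked controls to -1.11 and -1.16 with ribosomal protein genes on the log scale.

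Differences among the 5 genes depend less on a scale shared by the arrays, though the offset of 16 keeps them from being free of it. Each gene's log2(signal + 16) was therefore set against the median of the 5 genes on the same array, with the brightest probe set for chinmo and Nrt. zfh1 stood 0.60 higher within the set in can than in control, and so 0.62 lower. chinmo stood 0.49 higher within the set in the group labelled comr. In these 3 cases the groups did not overlap, as in 9 of the 15 such differences computed. The 15 are not independent, since each is taken against the median of the same 5 genes. On the 3 arrays labelled comr eya was itself that median. The share of such cases over all probe sets was not computed. Each of the 9 has an exact two-sided permutation p of 0.1, the smallest that 3 arrays against 3 allow, so none can pass 0.05 and the values are given as a description.

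Other markers of the hub and cyst lineage gave a similar picture with exceptions at the level of single genes. Of 28 genes in that list 21 were measured and 16 tested. In the group labelled comr 1 was called higher and 1 lower, beside 45.6% of all tested probe sets called in either direction, with a median change of 0.09. In can 2 were higher and 0 lower, beside 33.8% of all, with a median of 0.16. Over the 6 scalings the count of higher genes was 0 to 2 in both mutants, and that of lower genes 1 to 8 in the group labelled comr and 0 to 11 in can. The markers Egfr, dlg1, ptc, tj and upd1 never exceeded the floor on any array, among them the defining cyst cell factor tj (means of 8.80, 3.03 and 3.87 in control, the group labelled comr and can) and the hub ligand upd1 (3.8, 1.6 and 12.8). The label of a somatic lineage thus rests on part of its markers here.

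Stat92E, the transcription factor of the JAK-STAT pathway, averaged 46.6 in control, 151 in the group labelled comr and 119 in can. It rose by 1.42 (SE 0.120, limma adjusted p = 2.54e-07) and 1.10 (limma adjusted p = 3.83e-06), and the change in can turned to -0.22 with ribosomal protein centring on the log scale. CadN, a cadherin that holds hub cells together and is also made by neurons, averaged 55.1, 11.2 and 34.8. It fell in the group labelled comr, where all 3 arrays were under the floor, by at least 2.70-fold (limma adjusted p = 2.58e-06), and was called lower there in all 6 scalings. Timp, an inhibitor of matrix proteases, averaged 49.9, 96.6 and 149.7, and rose in can by 1.32 (limma adjusted p = 5.63e-06), with calls in 4 of 6 scalings.

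The other 13 tested hub and cyst markers were not called in either mutant. Several of them lay near the floor, where the offset of 16 makes a 2-fold change hard to reach. In control, the group labelled comr and can, magu averaged 16.7, 17.0 and 17.3, piwi 18.0, 18.0 and 23.6, and nord 21.3, 23.7 and 22.7. Others, such as ImpL2 at 89.6, 74.7 and 95.6, lay well above the floor. By the adjusted p alone, 3 of all 16 were higher and 1 lower in the group labelled comr, and 4 and 2 in can, against 50.5% and 28.9%, and 47.2% and 23.9%, of all tested probe sets. puc, a phosphatase that restrains the JNK pathway, averaged 6.77 in control, 21.8 in the group labelled comr and 19.4 in can, with changes of 0.75 and 0.64 (limma adjusted p = 0.00148 and 0.00478) that turned negative with ribosomal protein genes on the log scale. All control arrays of puc lay under the floor, so its rise in the group labelled comr is at least 1.07-fold. The can arrays read 24.6, 19.7 and 14.0, around the floor. The SoxE factor Sox100B, made in somatic cells of the male gonad, averaged 30, 29.0 and 43.7, with a change of 0.38 in can (limma adjusted p = 0.0179). The hub factor esg read 37, 16.6 and 17 on the control arrays, so 1 of 3 lay above the floor, and averaged 14.8 and 10.8 in the mutants. hh, the hub ligand that cyst stem cells respond to, averaged 22.9, 14.5 and 14.4. puc, Sox100B, esg and hh were picked with their values known.

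The pathways in which these genes act were read from lists by name. Of all tested probe sets 28.9% were called higher and 16.7% lower in the group labelled comr, and 20.7% and 13% in can, and a list's count near these shares is no result about the list. In the JAK-STAT list 5 genes were tested, with 1 higher and 1 lower in the group labelled comr and 1 higher and 0 lower in can. Across the scalings 0 to 2 were higher in each mutant, and 1 to 2 lower in the group labelled comr and 0 to 1 in can. The lower gene was ken, a repressor of a subset of STAT targets, which averaged 53.6 in control, 10.1 in the group labelled comr and 79.9 in can. It fell in the group labelled comr by at least 2.62-fold (limma adjusted p = 9.99e-07), under all 6 scalings, and directly against can by at least 3.90-fold (limma adjusted p = 2.50e-07).

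In the EGF receptor list of 10 tested genes, 3 were higher and 0 lower in the group labelled comr, and 2 and 0 in can, close to the 28.9% and 20.7% of all called higher. Over the 6 scalings 0 to 5 were higher and 0 to 1 lower in the group labelled comr, and 0 to 2 of each in can. Sos, the exchange factor that activates Ras, averaged 16, 113.5 and 82.4 and rose by 2.04 and 1.62 (limma adjusted p = 1.10e-06 and 1.24e-05). cnk, a scaffold of Ras signalling to Raf, rose by 1.31 in the group labelled comr (limma adjusted p = 9.74e-07), and ksr, another scaffold of that cascade, by 1.24 in can (limma adjusted p = 1.21e-06), which turned to -0.083 with ribosomal protein genes on the log scale. These proteins are used in many cell types, and the arrays do not say in which cells the signals arose.

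In the hedgehog list of 7 tested genes 1 was higher and 1 lower in the group labelled comr, and 1 and 0 in can, beside 45.6% and 33.8% of all called in either direction. Across the scalings 0 to 1 were higher and 0 to 4 lower in the group labelled comr, and 0 to 2 and 0 to 3 in can. The higher gene in both was Su(fu), which holds back the pathway's transcription factor, at 47.9, 146 and 132, whose change in can turned to -0.12 with ribosomal protein genes on the log scale. Cul3, a ubiquitin ligase scaffold, averaged 1444, 702.6 and 766 and fell by 1.02 in the group labelled comr (limma adjusted p = 6.64e-08). The can value of Cul3, -0.90, stayed short of 2-fold.

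Of 5 tested genes of the retinal determination network, in which eya and so act in the eye, 2 were higher in the group labelled comr, 1 in can, and 0 lower in either, where 28.9% and 20.7% of all were higher. Over the 6 scalings 0 to 2 were higher and 0 to 2 lower in each mutant. Six4, a relative of so, averaged 4.53 in control, 47.0 in the group labelled comr and 41.7 in can, and rose from under the floor by at least 2.30-fold and 2.04-fold (limma adjusted p = 3.41e-07 and 1.05e-06). dac, a partner of eya and so in the eye, averaged 13, 56.3 and 27.4 and rose in the group labelled comr by at least 2.77-fold (limma adjusted p = 3.67e-05). so itself had the opposite sign.

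Septate junction genes, which seal cyst cells around the germ cells, counted 2 higher and 0 lower of 15 tested in each mutant, where 28.9% and 20.7% of all were higher. Across the scalings 0 to 6 were higher and 0 to 2 lower in the group labelled comr, and 0 to 4 and 0 to 7 in can, and the list's median went down to -0.58 and -0.84. pck, a claudin, averaged 35.2 in control, 110 in the group labelled comr and 115 in can and rose by 1.33 and 1.39 (limma adjusted p = 3.31e-05 and 2.86e-05). scrib, a polarity scaffold, rose by 1.09 in the group labelled comr (limma adjusted p = 0.000572), and Tsf2, a transferrin of the junction, by 1.04 in can (limma adjusted p = 0.000139), and both turned negative with ribosomal protein genes on the log scale. Among 4 tested partners or targets of zfh1 and chinmo 1 was higher and 2 lower in the group labelled comr, and 1 higher and 0 lower in can, beside 45.6% and 33.8% of all called in either direction. The lower ones were ken and Cul3, given above, and the higher gene was CtBP, a corepressor that Zfh1 recruits, at 43.7, 134 and 136, with changes of 1.32 and 1.35 (limma adjusted p = 3.44e-07 and 4.20e-07).

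**Figure D4:**
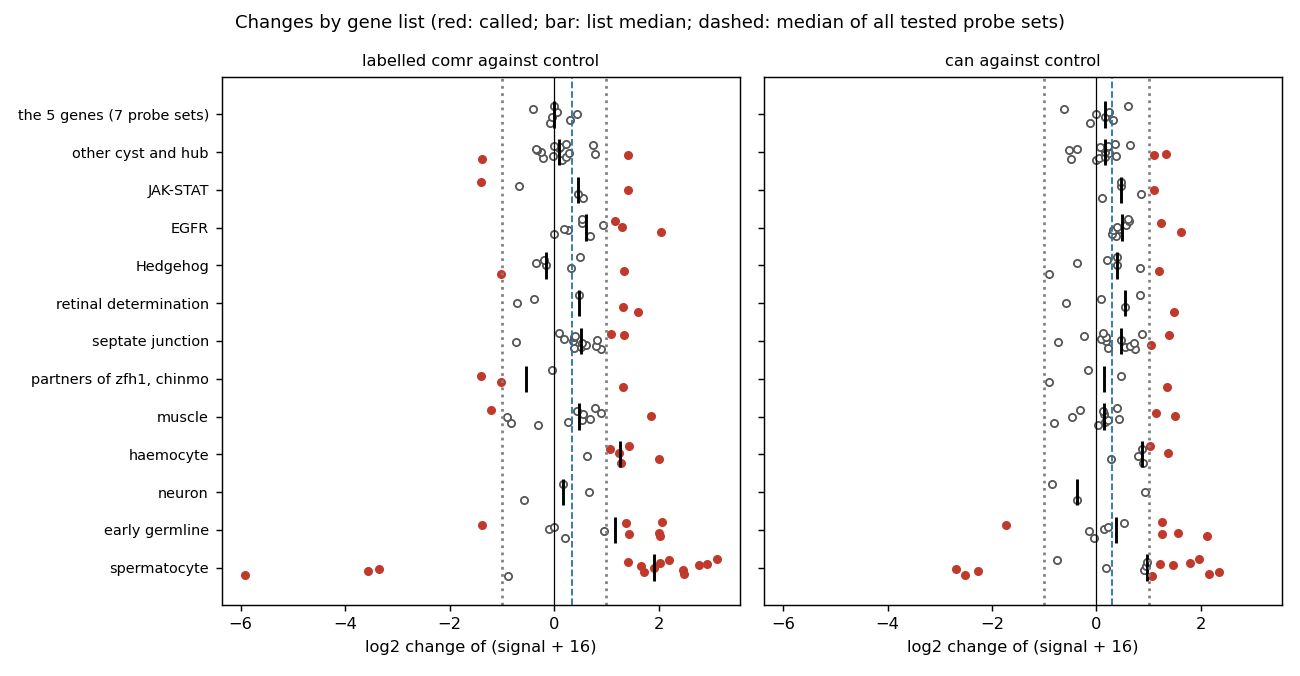
Change against control of every tested gene (points, red where called) in the 5 somatic genes and in 12 of the gene lists, log2(signal + 16) scale, with the list median as a bar, the median of all tested probe sets as a dashed line and dotted lines at 2-fold. No point of the 5 genes is red, and the hub and cyst list has medians of 0.09 and 0.16, below those of all tested probe sets (0.35 and 0.29).

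The 5 genes are also made outside the testis lineage, so other cells of a dissected testis were read the same way. Of 6 tested haemocyte genes 5 were higher and 0 lower in the group labelled comr and 2 higher and 0 lower in can, where 28.9% and 20.7% of all were higher. Over the 6 scalings 0 to 5 were higher and 0 lower in the group labelled comr, and 0 to 4 higher and 0 to 1 lower in can, where the list's median went down to -0.44. The summed signal of the 11 measured haemocyte genes was 213.4 to 348.5 in control, 664.2 to 748.3 in the group labelled comr and 489 to 576.2 in can, while NimC1, Sr-CI and eater never exceeded the floor. Hml, the haemocyte protein hemolectin, rose by at least 4.73-fold in the group labelled comr (limma adjusted p = 2.16e-07). On the can arrays Hml read 12.9, 17.2 and 24.1, around the floor, with a change of 0.28 (limma adjusted p = 0.150). Directly between the mutants Hml was 1.73 higher in the group labelled comr (limma adjusted p = 3.19e-06). In the same list vkg, a collagen of basement membranes, rose by 1.43 and 1.02, and Pxn, a peroxidase of the same matrix, by 1.25 and 1.38 (limma adjusted p from 5.92e-06 to 0.000360), and vkg in can turned to -0.30 with ribosomal protein genes on the log scale.

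Muscle genes, for the sheath, counted 1 higher and 1 lower of 12 tested in the group labelled comr and 2 and 0 in can, beside 45.6% and 33.8% of all called in either direction, with sums of 2322 to 2525 in control, 2113 to 2399 in the group labelled comr and 2005 to 2288 in can and no member at or under the floor throughout. Prm, paramyosin, was at least 5.16-fold and 3.81-fold higher (limma adjusted p = 8.77e-08 and 1.02e-06). The lower muscle gene was sls, which encodes a giant protein of the sarcomere, at 32.5, 4.53 and 21.7, with a change of -1.20 in the group labelled comr (limma adjusted p = 0.000104). Across the scalings 0 to 5 muscle genes were higher and 0 to 4 lower in the group labelled comr, and 0 to 2 and 0 to 8 in can. Of 3 tested neuronal genes 0 were called in either mutant, with sums of 171.3 to 189.7, 123.5 to 176.3 and 143.2 to 156.9 over 10 measured genes, of which Rdl, brp, elav, para, repo and unc-13 never exceeded the floor. Appl, a neuronal membrane protein, had signal means of 89.6, 54.8 and 64.8, with changes of -0.57 and -0.38. futsch went the other way, at 10.9, 26.8 and 34.9, with changes of 0.66 and 0.93 and all control arrays under the floor. The remaining tested gene, nSyb, had changes of 0.18 and -0.85. Of the 10 measured genes of this list, which include the glial gene repo, 6 were at or below the floor. Whether neurons add to the signal of Nrt was not tested.

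Pigment cells of the sheath had 4 tested genes, with 1 higher and 0 lower in each mutant, where 28.9% and 20.7% of all were higher. Their list had sums of 116.3 to 171.9 in control, 283 to 453.6 in the group labelled comr and 254.9 to 290.5 in can. Over the 6 scalings 1 to 2 genes were higher and 0 to 2 lower in the group labelled comr, and 0 to 1 of each in can. The gene called higher in both was ca, which the genotypes do not name, at 32.5, 211.2 and 120.4. Its changes were 2.23 and 1.56 (limma adjusted p = 1.26e-05 and 0.000335). The list also holds w, cn and bw, which are marker mutations of the mutant strains, so its values cannot be told apart from strain. Of these only bw was tested, with changes of 0.04 and -0.48. Accessory gland genes had 0 higher and 1 lower of 11 in the group labelled comr and 0 called in can. Fat body genes had 0 higher and 2 lower of 9 in the group labelled comr and 0 called in can, and ejaculatory duct genes 0 higher and 1 lower of 3, and 0. Of all tested probe sets 16.7% were lower in the group labelled comr. Over the 6 scalings 1 to 8 fat body genes were lower in the group labelled comr and 0 to 7 in can. For accessory gland genes it was 0 to 9 and 0 to 3 lower, and for ejaculatory duct genes 0 to 2 and 0 to 1. Of these lists only the ejaculatory duct list had a gene called higher, 0 to 1 in can. The part of these cells in the results for the 5 genes was not tested. With the array of most accessory gland signal left out of each group, zfh1 in can was 0.56 higher (limma adjusted p = 0.00867) and so in can -0.77 (limma adjusted p = 0.0149). Over all alternatives that kept every array or left out these, the adjusted p in can ranged from 0.000119 to 0.0207 for zfh1, whose sign turned with ribosomal protein genes, and from 7.65e-07 to 0.148 for so, with the highest value under spiked control scaling.

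Germline lists were read beside the somatic genes. Of 15 tested spermatocyte genes 11 were higher and 3 lower in the group labelled comr, and 7 and 3 in can. Of 10 early germline genes 5 were higher and 1 lower, and 4 and 1. These counts stand beside 0 of 7 for the somatic probe sets and 45.6% and 33.8% of all tested probe sets, and whether the lists differ was not tested. Over the 6 scalings 6 to 11 spermatocyte genes were higher and 3 to 4 lower in the group labelled comr, and 1 to 10 and 3 to 5 in can. For early germline genes it was 0 to 6 higher and 0 to 3 lower in the group labelled comr, and 0 to 4 and 1 to 5 in can.

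For each tested probe set the genes most alike in pattern were found by Pearson correlation of log2(signal + 16) over the 9 arrays, which describes shape across 3 genotype groups and not shared function. zfh1 was most like VhaAC39-2 (0.986), CG2065 (0.974) and CG6707 (0.974). VhaAC39-2, a subunit of a proton pump, averaged 51.2 in control, 49.6 in the group labelled comr and 391 in can, a far larger difference of the same shape. so was most like Fer2LCH (0.925), yellow-f2 (0.921) and Pect (0.914), and Fer2LCH, a ferritin chain, averaged 964.6, 748.2 and 676.8.

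eya was most like CG2765 (0.939), CG6409 (0.931) and Jhbp5 (0.929). chinmo was most like CG12773 (0.944), Grp170 (0.936) and CG1695 (0.930) by probe set 142998_at, like CG2698 (0.978), Slbp (0.937) and del (0.936) by 151746_at, and like Pura (0.984), CG9331 (0.929) and Ugt36A1 (0.912) by 145593_at. The 3 chinmo probe sets thus shared none of their nearest genes. Nrt had the weakest likeness, to Desat2 (0.812), PPO3 (0.804) and CG9822 (0.801).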

How the data were processed

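Per the submitters' processing notes, GCOS 1.4 was used. The deposited table gives a linear intensity per probe set and array, which the authors had scaled so that the trimmed mean of each array lay near 100. The signal algorithm was not given in the sources used here. Of 14010 probe sets 44 controls were left out of the tests, and of the rest 12443 had 1 gene symbol, 327 several and 1196 none. The 30% with the lowest mean signal (under 15.1) were left out, which left 9778. Values were tested as log2(signal + 16) with limma 3.58.1 in R 4.3.3: lmFit with 1 coefficient per group over all 9 arrays, eBayes with an intensity trend, two-sided, with Benjamini-Hochberg adjustment over all tested probe sets. The procedure was tested on simulated data. No 2 arrays were identical.

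No label says what a shared replicate number stands for. Deviations of same-numbered arrays correlated at -0.14 to 0.19, over 0.1 in 4 of 9 pairs, so they were not taken as pairs. A fold against a group wholly at or under the floor is a lower bound, computed from mean log2 signals with the dim group set to the floor or its own signal if higher. Genes named were the 5 genes, up to 2 called genes per list and comparison with control (largest change, arrays not overlapping) or, where none was called, the brightest, and the 3 genes most alike per probe set; others named were chosen after their values were seen. The genes and lists were chosen with earlier results of these data known.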

Additional observations from a re-analysis of the deposited data

How the results depend on the processing

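The count of called probe sets among the 7 stayed at 0 in all 3 comparisons under quantile, array median or spiked control scaling, offsets of 1 and 64, no filter or a stricter one that drops 50%, weighted arrays, fits with no intensity trend or limited to the compared groups, a 4-fold minimum, 1 probe set per gene and the array of most accessory gland signal left out per group, and from 0 to 0 with any array left out. With the replicate number as a block it was 0, 0 and 0, and the block changed no call. Without a minimum fold it was 3, 3 and 2 (the group labelled comr against control, can against control, between the mutants), with ribosomal protein centring 1 and 2 against control, and with that on the log scale 5 and 6. Within each mutant, the log-scale centring moved the changes of all probe sets against control downwards by the same amount. Single changes turned sign in 32 of 342 other fits and in 13 of 189 with an array left out; the cause was not tested beyond the shift of scale. Against control in the group labelled comr, with spiked controls Nrt became 0.34, chinmo 145593_at 0.29 and zfh1 0.37; with ribosomal protein centring chinmo 142998_at became -0.63, chinmo 151746_at -0.38 and eya -0.77, and on the log scale -0.80, -0.67 and -1.04; eya became -0.11 with array medians and -0.0060 without the accessory gland arrays, and chinmo 145593_at 0.051 with quantiles. In can, with spiked controls Nrt became 0.15 and chinmo 151746_at 0.24; with ribosomal protein centring chinmo 142998_at became -0.79, chinmo 145593_at -0.66, eya -0.75 and zfh1 -0.37, and on the log scale -1.01, -1.16, -1.08 and -0.71; chinmo 145593_at became -0.035 with array medians. Between the mutants chinmo 142998_at became 0.060 with array medians, 0.025 with quantiles, 0.16 and 0.20 with ribosomal protein centring without and with the log scale, 0.14 with spiked controls and 0.024 without the accessory gland arrays; chinmo 145593_at became 0.045 with quantiles and 0.027 with ribosomal protein genes on the log scale, where eya became 0.042. With an array left out, the changes that turned sign ranged from -0.22 to 0.020 (Nrt, group labelled comr), -0.088 to 0.13 (Nrt, between mutants), -0.12 to 0.062 (chinmo 142998_at, between mutants), -0.12 to 0.026 (chinmo 145593_at, group labelled comr), -0.074 to 0.048 (chinmo 151746_at, can) and -0.066 to 0.032 (zfh1, group labelled comr), and Nrt within the set in the group labelled comr from -0.026 to 0.19. Signal over background limits chinmo 145593_at, which lay within a few units of the floor.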
